A study of Mus musculus with 6 samples.

Results

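The BCL2 family holds the genes that decide whether a cell opens its mitochondria and dies. Described here are 10 of them, chosen by gene symbol out of the 51912 Ensembl genes of the count table: the survival genes Bcl2, Bcl2l1 and Mcl1, the effectors Bax and Bak1, and the BH3-only genes Bcl2l11, Bbc3, Pmaip1, Bik and Bmf. Each symbol matched 1 gene, and 10 of 10 passed the filter on low counts. The cells were R1 mouse embryonic stem cells, an established line, held in 2iLIF medium (inhibitors of MEK and GSK3 plus the cytokine LIF, which keep the naive state) and then moved to N2B27 (a medium without serum) that contained FGF2 at 100 ng/ml. RNA was sequenced after 24 h (3 libraries, replicates 1 to 3) and after 48 h (3 libraries, replicates 1 to 3). Both groups carry the same medium change and the same FGF2 dose, and cells in 2iLIF or in N2B27 without FGF2 were not analysed here, so a difference is one between the first and the second day and not between FGF2 and its absence. R1 is a single line, and the labels do not say whether replicates were separate cultures, so p-values measure only the spread between these libraries.

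As background, proteins of the 3 roles bind one another. BAX and BAK1 form the pore in the outer mitochondrial membrane that releases cytochrome c, the survival proteins hold them and the BH3-only proteins in check, and BH3-only proteins, raised or unleashed by stress signals, tie up the survival proteins or switch on the effectors. The contact is made by the BH3 segment, a short helix that fits a groove on the survival proteins and on the effectors. Much of this control acts on protein: MCL1 is short-lived, and phosphorylation by ERK, the kinase below the FGF receptor, marks the BIM protein made from Bcl2l11 for degradation. Such steps are not seen in RNA.

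The BH3 segment is what the 3 roles share and what the choice of genes by name did not use, and the bases that encode it are therefore shown. In coding frames of GENCODE M21 (GRCm38), a search was made for a leucine codon (CTN, TTA or TTG), 3 further codons, a glycine or alanine codon (GGN or GCN) and an aspartate codon (GAT or GAC). Such a run was found in 10 of 10 members and in 24.3% of the 21559 coding genes searched, so the run alone does not mark the family. In 9 members it occurred once in the principal frame. That of Pmaip1, which encodes NOXA, held it 2 times. Sequences on the chromosome of Pmaip1 were left out by rule, so none is printed for it. The stretches have 42 bases, lie within 1 exon each and are written 5′ to 3′ on the coding strand, with the leucine, glycine or alanine, and aspartate codons in capitals:
Bcl2 (survival, chr1:106712572-106712613, minus strand): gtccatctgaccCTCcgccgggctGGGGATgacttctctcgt
Bcl2l1 (survival, chr2:152829694-152829735, minus strand): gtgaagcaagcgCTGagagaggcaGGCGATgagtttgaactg
Mcl1 (survival, chr3:95659424-95659465, plus strand): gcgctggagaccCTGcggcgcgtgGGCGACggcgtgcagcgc
Bax (effector, chr7:45465994-45466035, minus strand): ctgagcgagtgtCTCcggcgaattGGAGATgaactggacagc
Bak1 (effector, chr17:27022528-27022569, minus strand): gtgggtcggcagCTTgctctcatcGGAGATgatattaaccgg
Bcl2l11 (BH3-only, chr2:128147138-128147179, plus strand): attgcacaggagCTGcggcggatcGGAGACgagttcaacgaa
Bbc3 (BH3-only, chr7:16313761-16313802, plus strand): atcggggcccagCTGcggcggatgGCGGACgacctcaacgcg
Bik (BH3-only, chr15:83543072-83543113, plus strand): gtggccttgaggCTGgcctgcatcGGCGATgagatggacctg
Bmf (BH3-only, chr2:118545097-118545138, minus strand): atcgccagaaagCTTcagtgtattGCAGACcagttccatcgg

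Over the 36 pairs, between 15 and 28 of the 42 bases were identical, and between 10 and 21 of the 33 bases outside the capitals. Bcl2l11 and Bbc3 shared most (28 of 42, 21 of 33 outside the capitals), followed by Bak1 and Bik (27 of 42, 20 of 33), and Bcl2l1 and Bmf shared fewest of the 42 (15). Bbc3 and Bmf hold an alanine codon where the other printed members hold a glycine codon.

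The libraries held between 19574969 and 23133148 estimated counts, and a single count was worth between 0.0424 and 0.0501 CPM (the count relative to the library total after TMM scaling). Replicates had Spearman correlations of at least 0.9965 across genes. The summed level of 5 embryonic stem cell markers lay between 3770 and 3870 CPM at 24 h and between 2190 and 2280 CPM at 48 h, and 5 of 5 fell. The falls were unequal: Nanog went from a mean of 694.7 to 174.4 CPM, and Pou5f1 only from 1111.3 to 1058.3 CPM. The summed levels of 5 primitive endoderm markers (9.01 to 10.6 CPM at 24 h, 5.53 to 6.18 CPM at 48 h), 5 fibroblast markers (2.54 to 3.35 CPM, then 2.53 to 3.83 CPM), 5 mesoderm markers (1.7 to 2.4 CPM, then 0.677 to 0.921 CPM) and 5 blood markers (2.8 to 4.35 CPM, then 2.88 to 3.59 CPM) were low. The fibroblast sum hides opposite moves. Dcn had 0 counts in each 24 h library and 23, 25 and 32 counts at 48 h. Col1a1 fell from a mean of 1.03 to 0.30 CPM. Of 5 neural markers 4 rose and 1 fell, with sums of 108 to 119 CPM at 24 h and 136 to 145 CPM at 48 h. This sum also hides opposite moves. Tubb3, its largest part, fell from a mean of 78.2 to 54.3 CPM. Among those that rose, Pax6 went from 11.6 to 33.9 CPM and Sox1 from 14.7 to 36.6 CPM. The part of these shifts in the results on BCL2 family genes was not tested. In bulk RNA, fewer cells of a type and less RNA per cell cannot be told apart.

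Of the 5 BH3-only members, 4 rose between 24 h and 48 h and Bik did not pass the test. Among the survival genes Mcl1 rose, Bcl2l1 was slightly lower and Bcl2 did not pass, and of the effectors Bax rose and Bak1 fell. No test compared the roles. In all, 6 of 10 members were called higher and 2 lower at an adjusted p under 0.05 (edgeR's quasi-likelihood test). Of all 14889 genes tested, 30.9% were called higher and 31.9% lower, 62.8% in either direction, so a change as such does not set the family apart. The median log2 fold change was 0.48 over the 10 members and -0.01 over all tested genes. The members were chosen with earlier results of these data known. Over the 10 tested genes of the wider family the median was -0.02, with 3 higher and 4 lower. Among these are further BH3-only genes, of which Bid (-0.30) and Bad (-0.41) fell and Hrk (0.03) did not pass. By role, the log2 fold changes ran from 0.41 to 2.09 over the BH3-only members, from -0.11 to 0.55 over the survival genes and from -0.25 to 0.16 over the effectors, so the last 2 roles held members of both directions. At least 2-fold increases were called for 2 members, Pmaip1 and Bcl2l11, against 4.59% of all tested genes. The values of the time points did not overlap for 8 members, where 66.9% of all tested genes had no overlap.

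**Figure D1:**
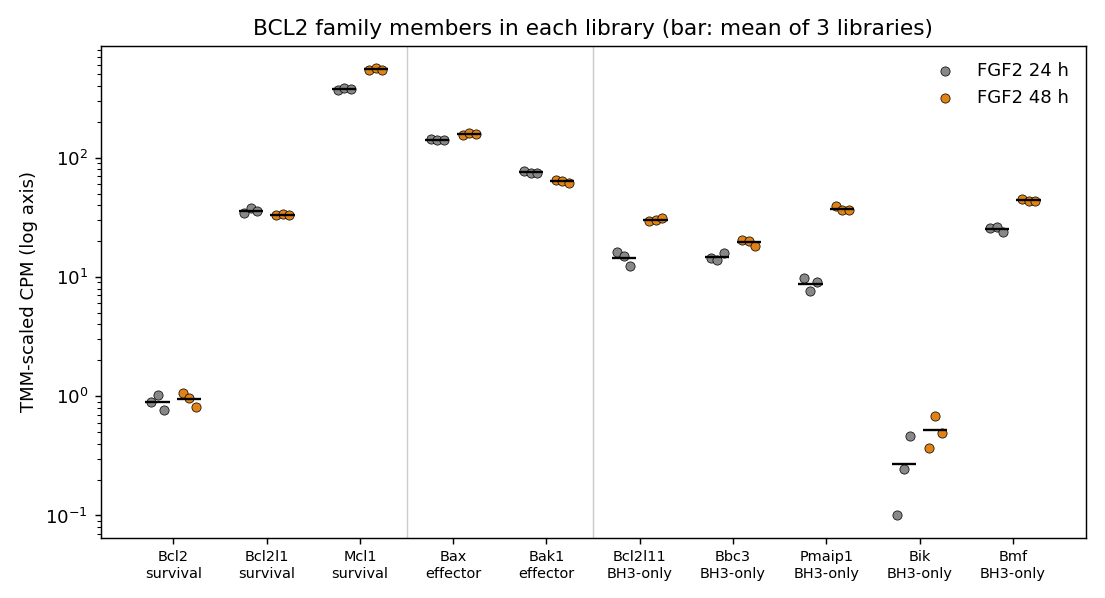
TMM-scaled CPM (log axis) of the 10 members in each of the 6 libraries, grouped by role, with FGF2 24 h in grey and FGF2 48 h in orange; the bar is the mean of 3 libraries. Pmaip1, Bcl2l11, Bmf, Bbc3, Mcl1 and Bax sit higher at 48 h with no overlap, Bak1 and Bcl2l1 lower, and Bcl2 and Bik overlap.

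Of the BH3-only genes, Pmaip1 (ENSMUSG00000024521) changed most. It encodes NOXA, which binds chiefly MCL1 and is a target of p53. Its level was 9.81, 7.57 and 9.03 CPM in the 24 h libraries and 39.4, 36.7 and 36.3 CPM in the 48 h libraries. Every 48 h library lay far above every 24 h library, and the values within a time point were close. The mean was 8.80 ± 1.14 CPM at 24 h and 37.5 ± 1.72 CPM at 48 h (SD, n = 3). This is a 4.25-fold rise, or 2.09 ± 0.08 (standard error) on the log2 scale (adjusted p = 3.95e-13). A change of this size or larger was fitted for few genes, since 97.4% of the tested genes changed by less or as much.

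Bcl2l11 (ENSMUSG00000027381) encodes BIM, which can bind all the survival proteins and can activate BAX and BAK1. Its level was 16.3, 14.9 and 12.3 CPM at 24 h and 29.7, 30.2 and 31.0 CPM at 48 h, with no overlap. The mean went from 14.5 ± 2.04 to 30.3 ± 0.64 CPM (SD, n = 3), 2.10-fold, or 1.07 ± 0.08 (standard error) on the log2 scale (adjusted p = 3.48e-09). Bmf (ENSMUSG00000040093), whose product senses loss of attachment and binds the motor complexes of the cytoskeleton, stood at 25.7, 26.3 and 23.9 CPM and then at 45.2, 43.7 and 43.3 CPM. The 3 libraries of each time point were close together and the time points well apart. Bmf rose 1.75-fold, a log2 fold change of 0.80 ± 0.05 (adjusted p = 1.92e-10). Bbc3 (ENSMUSG00000002083) encodes PUMA, a p53 target that binds the survival proteins. It was measured at 14.4, 14.0 and 16.0 CPM at 24 h and at 20.6, 20.1 and 18.3 CPM at 48 h. The gap between the time points was smaller than for Bmf, but the values did not overlap, and the log2 fold change was 0.41 ± 0.07 (adjusted p = 0.000162).

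Bik (ENSMUSG00000016758), whose product resides at the endoplasmic reticulum, was near the limit of detection. It had 2, 5 and 11 counts in the 24 h libraries and 8, 15 and 11 counts in the 48 h libraries, and the groups overlapped. The log2 fold change of 0.87 had a 95% interval from -0.17 to 1.92 (adjusted p = 0.134), so neither no change nor a rise of the size seen for Bcl2l11 was outside it. Without replicate 3 of 24 h, the library with 11 counts, Bik passed (log2 fold change 1.55, adjusted p = 0.0371), whereas over all the alternatives of the fit the adjusted p ranged from 0.0371 to 0.396.

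Mcl1 (ENSMUSG00000038612) was the most abundant member. Its product binds BAK1, BIM and NOXA and is needed by many stem cells. The 24 h libraries held 371.6, 385.9 and 376.4 CPM and the 48 h libraries 548.3, 562.8 and 543.4 CPM. All libraries of the second day were higher. The mean went from 378.0 ± 7.32 to 551.5 ± 10.1 CPM (SD, n = 3), 1.46-fold, or 0.55 ± 0.02 (standard error) on the log2 scale (adjusted p = 4.48e-13).

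Bcl2l1 (ENSMUSG00000007659), which encodes BCL-XL, a survival protein of the outer mitochondrial membrane, had 34.5, 37.5 and 35.8 CPM at 24 h and 33.1, 33.5 and 33.4 CPM at 48 h. The 48 h values lay just below the lowest 24 h value. The log2 fold change was -0.11 ± 0.04 (adjusted p = 0.0418), and the call was lost in 10 of 16 alternative fits, with adjusted p from 0.00327 to 0.212. Without replicate 2 of 24 h, the highest library, it was -0.08 (adjusted p = 0.17). The founding member Bcl2 (ENSMUSG00000057329) was barely detected, with 18, 21 and 18 counts at 24 h and 23, 21 and 18 at 48 h. Its values overlapped, and the log2 fold change of 0.08 had a 95% interval from -0.51 to 0.67 (adjusted p = 0.821), which leaves room for a change of moderate size either way. Its exons share 558 bases with a gene on the opposite strand, and whether counting used the strand is not given in the sources used here.

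The effectors moved apart. Bax (ENSMUSG00000003873), a largely cytosolic protein that moves to mitochondria when activated, had 142.3, 140.0 and 141.0 CPM at 24 h and 156.0, 160.3 and 158.1 CPM at 48 h. All 48 h libraries were higher, by a small margin, and the fitted difference on the log2 scale was 0.16 ± 0.02 (standard error; adjusted p = 1.61e-05). Bak1 (ENSMUSG00000057789), the effector that sits in the mitochondrial membrane, had 77.5, 74.4 and 75.1 CPM at 24 h and 65.6, 63.3 and 61.6 CPM at 48 h. Here every 48 h library was lower, and the log2 fold change was -0.25 ± 0.03 (adjusted p = 8.35e-06). Counts of Bax were fractional, and 192 bases of its exons also belong to another gene model on the same strand. The part of that overlap in the fractions was not tested. Exons of Bak1 overlap those of Ggnbp1 on the opposite strand. With library size as the only scaling, both kept their direction.

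**Figure D2:**
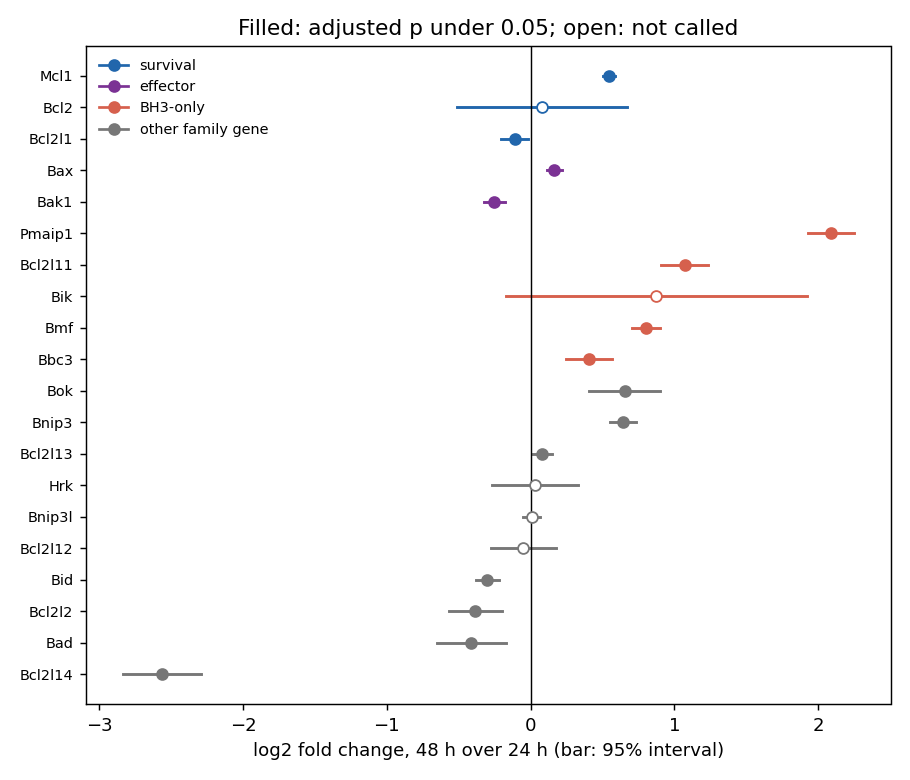
Log2 fold change, 48 h over 24 h, with 95% interval. The 10 members are coloured by role and the 10 tested genes of the wider family are grey. Filled points passed an adjusted p of 0.05. The BH3-only members lie to the right of 0, from 0.41 for Bbc3 to 2.09 for Pmaip1, with an interval across 0 for Bik. The grey points include further BH3-only genes, Bid (-0.30), Bad (-0.41) and Hrk (0.03), and the survival gene Bcl2l2 (-0.38). Bcl2l14 lies furthest to the left at -2.56.

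To set levels of different genes side by side, CPM was divided by the exon length of each gene in kilobases (GENCODE M21, all exons joined). Per kilobase, Mcl1 stood first at both times, at 110.6 ± 2.14 at 24 h and 161.4 ± 2.95 at 48 h (SD, n = 3), followed by Bax (89.5 ± 0.73, then 100.3 ± 1.37) and Bak1 (31.4 ± 0.69, then 26.4 ± 0.84). These 3 did not overlap with their neighbours in the order. At 24 h Bcl2l1 came next (7.84 ± 0.33) with values that overlapped those of Bbc3 (6.95 ± 0.50), and then Bmf, Pmaip1 and Bcl2l11. At 48 h the order below Bak1 was Pmaip1 (13.7 ± 0.63), Bbc3 (9.25 ± 0.58), Bmf (8.39 ± 0.18), Bcl2l1 (7.27 ± 0.05) and Bcl2l11 (3.77 ± 0.08), each apart from the next. Pmaip1 thus went from rank 7 to rank 4 and Bcl2l1 from rank 4 to rank 7. Bik and Bcl2 came last at both times, below 1 CPM per kilobase, and overlapped each other at 24 h.

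Summed by role on this per-kilobase scale, the 5 BH3-only members went from 16.97 ± 0.54 to 35.5 ± 1.19 and the survival genes from 118.5 ± 2.48 to 168.7 ± 2.98 (SD, n = 3). The effectors went from 121 ± 1.41 to 126.7 ± 1.15, and with library size as the only scaling from 123.5 ± 1.47 to 124.1 ± 1.301, where the libraries overlapped. Mcl1 made up 93.3% ± 0.15 of the survival sum at 24 h and 95.6% ± 0.06 at 48 h, so that this sum is in effect the level of Mcl1. Ratios taken within a library do not depend on the scaling. The survival sum over the BH3-only sum was 6.71, 7.41 and 6.86 at 24 h and 4.57, 4.86 and 4.85 at 48 h, lower in each library of the second day. That fall rests on which BH3-only genes are summed. With Bid, Bad and Hrk, the other classical BH3-only genes, added after the data were seen, the BH3-only sum went from 40.01 ± 0.53 to 54.1 ± 1.76 and the ratio was 2.87, 3.07 and 2.95 at 24 h and 2.99, 3.21 and 3.16 at 48 h, where the time points overlapped. Bid alone held 18.9 ± 0.45 and then 15.4 ± 0.62 on this scale, at 24 h more than the 5 members together. The survival sum was not extended in the same way. It leaves out the survival gene Bcl2l2, which held 2.79 ± 0.21 and then 2.14 ± 0.14. The survival sum over the effector sum was 0.949, 1.01 and 0.978 at 24 h and 1.33, 1.34 and 1.32 at 48 h, higher in each. These ratios depend on the annotated exon lengths and say nothing of protein, and since the members were chosen with these data known they are given as values with no test.

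**Figure D3:**
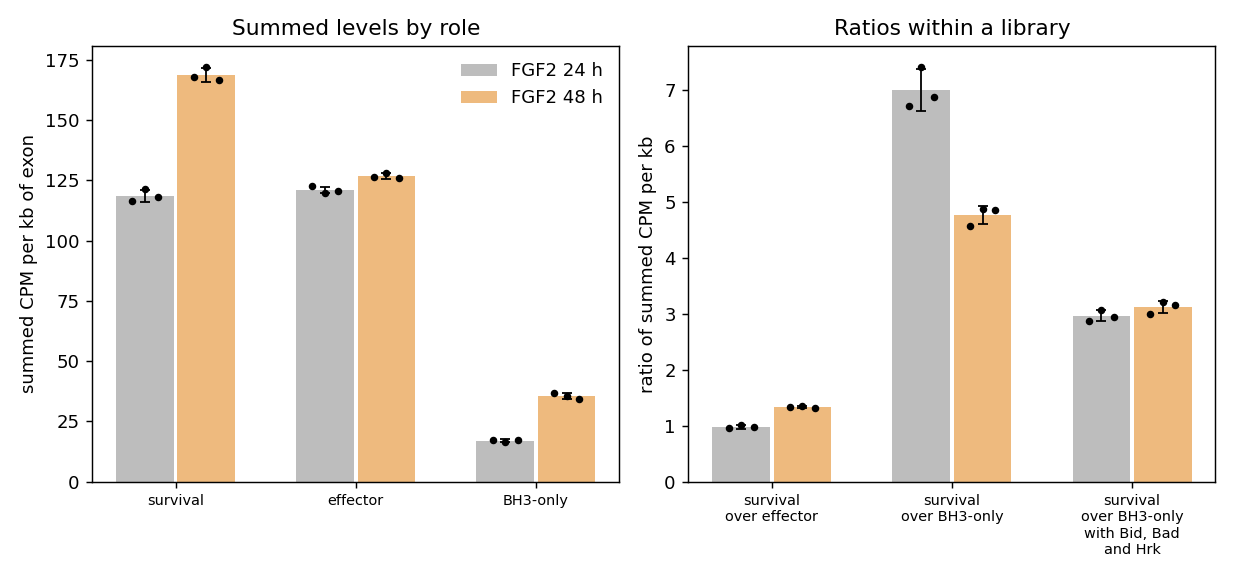
Left, CPM per kilobase of exon summed over the survival, effector and BH3-only members; right, ratios of these sums within a library, the last with 3 further BH3-only genes added; bars are means, error bars SD and points the 3 libraries of each time. The BH3-only sum rises from 16.97 ± 0.54 to 35.5 ± 1.19 and the survival sum from 118.5 ± 2.48 to 168.7 ± 2.98. At 48 h the survival over effector ratio is higher and the survival over BH3-only ratio is lower, but with Bid, Bad and Hrk added the latter overlaps between the times (2.96 ± 0.10 and 3.12 ± 0.12).

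Pairs of genes whose products bind each other moved unequally. Mcl1 over Pmaip1, per kilobase, was 30.3, 40.8 and 33.3 at 24 h and 11.1, 12.3 and 11.98 at 48 h. Mcl1 over Bcl2l11 was 53.5, 60.9 and 71.9 at 24 h and 43.3, 43.8 and 41.2 at 48 h. In both cases each 48 h library was lower than each 24 h library, although Mcl1 itself rose. Bax over Bak1 was 2.80, 2.87 and 2.87 and then 3.63, 3.87 and 3.92.

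**Figure D4:**
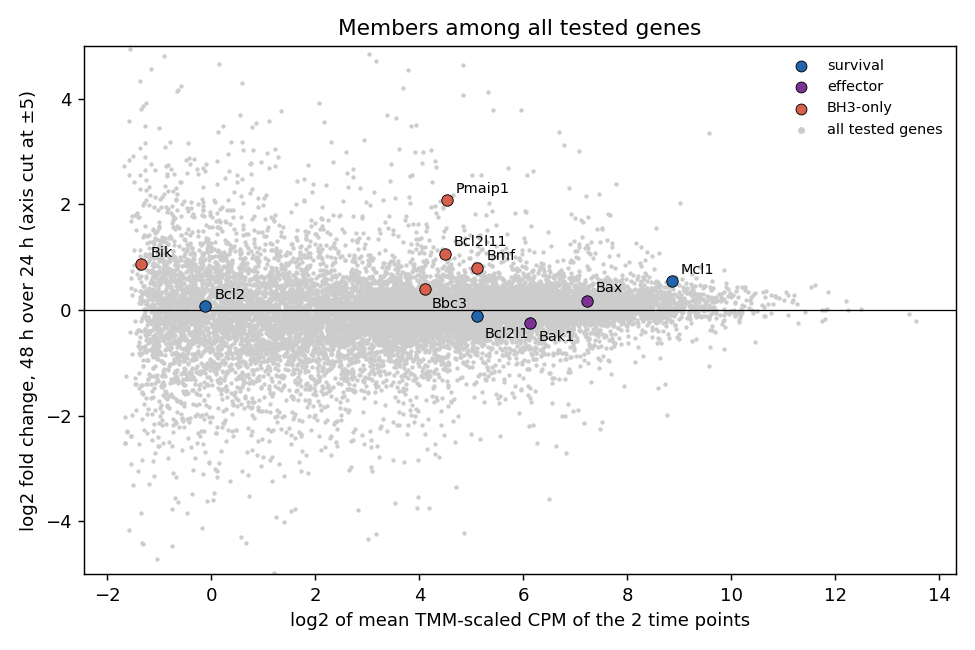
Log2 fold change against the log2 of the mean TMM-scaled CPM for all 14889 tested genes (grey), with the 10 members coloured by role; 14 genes lie beyond the axis limit of 5. Pmaip1 stands above most genes of its level, Bik and Bcl2 lie at the low end, and Bax, Bak1 and Bcl2l1 lie close to 0.

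The sequence before the starts of the members was examined as a description. Any part of it in the rise of 4 BH3-only genes was not tested. Pmaip1, which rose most, was left out of this search by the rule on its chromosome, and no start was listed for Bik. For the other 8 members, the 250 bases before 15 annotated RefSeq starts (GRCm38.p6) were searched on both strands for 6 motifs. These were the GC box, spelled GGGCGG, the box spelled CCAAT, which carries that name, and the core bound by FOXO factors, spelled TGTTTAC. The others were an E-box, spelled CACGTG, a cyclic AMP response element, spelled TGACGTCA, and an E2F motif, spelled TTTGGCGC. The FOXO core is shown because FOXO factors are known regulators of Bcl2l11 and Bbc3. It was found in 2 of the 15 windows, 1 of Bcl2l11 and 1 of Bbc3, and in 3.17% of all 32851 RefSeq windows. Capitals mark every match to these motifs, which in the Bcl2l11 window are 1 FOXO core, 3 GC boxes and 1 CCAAT box and in the Bbc3 window 1 GC box and 1 FOXO core, with no overlaps:
Bcl2l11 (chr2:128125788-128126037, plus strand): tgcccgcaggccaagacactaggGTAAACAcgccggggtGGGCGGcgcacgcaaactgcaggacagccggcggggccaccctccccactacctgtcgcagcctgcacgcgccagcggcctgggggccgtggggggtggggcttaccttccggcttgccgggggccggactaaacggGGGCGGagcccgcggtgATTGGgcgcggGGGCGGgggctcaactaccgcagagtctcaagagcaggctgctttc
Bbc3 (chr7:16310011-16310260, plus strand): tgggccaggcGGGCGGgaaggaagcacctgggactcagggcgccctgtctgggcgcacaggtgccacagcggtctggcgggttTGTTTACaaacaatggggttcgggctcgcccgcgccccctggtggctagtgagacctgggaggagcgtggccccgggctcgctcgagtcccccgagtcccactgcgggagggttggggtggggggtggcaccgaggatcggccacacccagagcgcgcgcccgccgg
A match describes letters and not a bound site, and counts per gene do not tell which start was used. The E-box was also found in 2 of the 15 windows (Bax and Bbc3, against 6.02% of all windows), the GC box in 8 (against 32.7%) and the CCAAT box in 5 (against 33.8%). The 15 windows are not independent, since some of the 8 members have several starts and 2 windows of Bbc3 overlap. GC content ran from 47.6% (a Bcl2l1 window) to 81.6% (a Bbc3 window), against a median of 52.4% over all windows. None of the 3 Bmf windows and not the Mcl1 window held the FOXO core. The cyclic AMP response element and the E2F motif were found in none of the 15 windows.

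The wider BCL2 family was followed through 15 further genes, of which 10 could be tested. Of these 3 rose, 4 fell and 3 did not pass, with a median log2 fold change of -0.02. Of all tested genes, 30.9% were called higher and 31.9% lower. Bcl2l14, an atypical member, fell most, from 8.96, 9.03 and 9.32 CPM at 24 h to 1.75, 1.37 and 1.49 CPM at 48 h (log2 fold change -2.56 ± 0.13, standard error; adjusted p = 2.61e-11). Its exons overlap an antisense gene. Bok, an effector-like gene, rose from 5.08 ± 0.69 to 8.01 ± 0.73 CPM (means ± SD, n = 3; difference on the log2 scale 0.65, adjusted p = 0.00013), and Bnip3, which encodes a mitophagy receptor, from 46.7 ± 2.20 to 72.7 ± 2.87 CPM (0.64, adjusted p = 9.53e-10). Bcl2l13 was higher by 0.08 (adjusted p = 0.0268), a call lost in 7 of 16 alternative fits.

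Of the 3 other classical BH3-only genes, Bid and Bad fell and Hrk did not pass. Bid, whose product links death receptors to mitochondria, fell from 67.2 ± 1.58 to 54.5 ± 2.21 CPM (means ± SD, n = 3; difference on the log2 scale -0.30, adjusted p = 3.14e-06). Bad, a partner of BCL-XL controlled by growth factor kinases, fell from 8.67 ± 0.98 to 6.52 ± 0.78 CPM (-0.41, adjusted p = 0.00464). Hrk stood at 4.18 ± 0.29 and 4.28 ± 0.74 CPM, with a 95% interval of the log2 fold change from -0.27 to 0.33. Bcl2l2, the survival gene that encodes BCL-W, fell by 0.38 on the log2 scale (adjusted p = 0.00116); part of its exon sequence belongs to a second gene model and its counts were fractional. Bid shares 628 exon bases with Bcl2l13 on the opposite strand and Bad shares 524 with Gpr137. Bcl2l12 and Bnip3l did not pass. Bcl2l10, Bcl2l15, Bcl2a1a, Bcl2a1b and Bcl2a1d had 0 to 5 counts per library and did not pass the filter.

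Downstream of the pore, the 16 genes of the mitochondrial apoptosis machinery showed 4 higher, 6 lower and 6 that did not pass, with a median of -0.05. For this list and the next ones, the shares of all tested genes were 30.9% higher and 31.9% lower. Cycs, which encodes cytochrome c, rose by 0.17 on the log2 scale (adjusted p = 0.00134). Casp9, the initiator caspase of the apoptosome, fell from 35.9 ± 1.14 to 25.2 ± 0.67 CPM (means ± SD, n = 3; -0.51, adjusted p = 6.96e-08), and Vdac1, a channel of the outer membrane, from 511.5 ± 12.7 to 375.1 ± 7.25 CPM (-0.45, adjusted p = 1.33e-11). Among 7 inhibitor of apoptosis genes, 5 were tested, of which Birc6 rose (0.18) and 3 fell, among them Birc5 (-0.15) and Xiap (-0.08, lost in 3 alternative fits). In the death receptor arm, 7 of 9 genes were tested, 3 higher and 3 lower, from -1.12 for Tradd to 0.44 for Fadd, both of which encode adaptors.

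Of 12 known regulators of the members, 6 were higher, 1 lower and 5 did not pass, with a median of 0.03. With library size as the only scaling 5 were higher and 5 lower, so the split of this list depends on the scaling. Trp73, a p53 relative, rose from 16.9 ± 0.66 to 28.7 ± 1.79 CPM (means ± SD, n = 3; difference on the log2 scale 0.76, adjusted p = 1.56e-08). The FOXO genes differed: Foxo1 rose from 57.3 ± 2.47 to 90.0 ± 2.12 CPM (0.65, adjusted p = 1.05e-10), and Foxo3 fell from 136.5 ± 2.69 to 112.7 ± 3.65 CPM (-0.28, adjusted p = 3.88e-07). Of 10 p53 targets outside the family, 6 were higher and 2 lower, with a median of 0.21 and no log2 fold change above 0.31. For both lists, the shares of all tested genes were 30.9% higher and 31.9% lower. Trp53inp1 rose by 0.31 and Zmat3 by 0.27, and Sesn1 fell by 0.43. Pmaip1, itself a p53 target, changed by 2.09 on the same scale, and Bbc3 by 0.41. The part of p53 in these changes was not tested.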

How the data were processed

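The authors' deposited table gives RSEM estimated counts per gene, per its name, for 6 libraries, unscaled for depth or length. The submitters' processing notes name cutadapt 1.9.1, STAR 2.5.2, RSEM 1.3.0 and the build GRCm38. The annotation and the use of strand are not given in the sources used here. RSEM divides reads that fit several genes, so 5354 genes have fractional counts.

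Expected counts were rounded, filtered with edgeR's filterByExpr (minimum count 10), scaled by TMM and compared between the 24 h and 48 h libraries with edgeR's quasi-likelihood test (edgeR 4.0.16, R 4.3.3), group being the only term. P-values were adjusted over all 14889 tested genes by the Benjamini-Hochberg method. A standard error is the size of the log2 fold change divided by the square root of F. The test was tested on simulated data. Replicate pairs differed by more than counting noise (chi-square per degree of freedom at least 1.816).

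The members and lists were chosen with earlier results of these data known. All members and wider family genes may be named. Of each other list, the 2 largest increases and the 2 largest decreases called at a mean of at least 5 CPM are named. A result that this rule would name is not reported here, though it counts in all totals. Alternatives were other scalings, filters, DESeq2 1.42.0, limma 3.58.1 (voom), unrounded counts, a threshold of 0.01, a replicate block and leaving out each library.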

Additional observations from a re-analysis of the deposited data

How the results depend on the processing

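Over 16 alternative fits, Mcl1, Bax, Bak1, Bcl2l11, Bbc3, Pmaip1 and Bmf kept their direction and their call in each. The count of changed genes ranged from 7810 (threshold of 0.01) to 9792 (every gene with a count tested), and from 8737 to 8904 without 1 library. The count of changed members was 7 or 8. The count of members lower at 48 h went from 2 to 1, by the loss of Bcl2l1, with RLE scaling, every gene with a count, DESeq2, limma voom and the threshold of 0.01, and ranged from 1 to 2 without 1 library. The cause was not tested. With the replicate block 9235 genes changed, 6 members higher and 2 lower, and no member's call changed. Deviations of libraries of one number correlated at -0.046, -0.043 and -0.009, so no pairing by number was seen. A weak shared effect could be missed by this check, so it does not settle whether libraries were paired. Without 1 library, the log2 fold change of Bcl2 ranged from -0.0331 to 0.185, Hrk from -0.0872 to 0.1589, Bcl2l12 from -0.1395 to 0.0309 and Bnip3l from -0.0033 to 0.0168. With library size only, Hrk was at -0.0294 and Bnip3l at -0.0514. None of these was called. The survival over BH3-only ratio fell by 0.55 on the log2 scale over the 5 BH3-only members, and with Bid, Bad and Hrk in the sum, a choice made after seeing the data, its change was 0.0744; here the added genes, 2 of which fell, make the difference. Depth limits Bcl2 and Bik, which had at most 23 counts in a library.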
